A study of Mus musculus with 4 samples.

Results

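The tumour necrosis factor (TNF) superfamily comprises trimeric ligands, most of them anchored in the membrane of the cell that makes them, and the receptors that bind them. 40 of the 24391 genes of the count table belonged to it, taken as every gene whose symbol starts with Tnfrsf or Tnfsf followed by a digit, plus Tnf, Lta, Ltb, Ltbr, Fas, Fasl, Cd40, Cd40lg and Ngfr. 16 of them code for ligands and 24 for receptors. Ligand binding clusters the receptor. Receptors with a death domain in their cytoplasmic tail can assemble caspase-activating complexes, whereas the tails of most others recruit TRAF adaptors that lead to the NF-κB and JNK pathways. In lymphocytes and their precursors these genes govern survival, costimulation and the formation of lymphoid tissue.

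The genes were measured by RNA-Seq in Beko cells, a single line of mouse T-cell progenitors in which Notch signaling is constitutively active. 4 libraries were analyzed, 2 of each condition. In the GSI condition, cells were kept for 48 h in DAPT, a γ-secretase inhibitor (GSI) that blocks the release of the Notch intracellular domain. In the washout condition, cells had the same 48 h of GSI, were then washed and were cultured for a further 24 h. Fresh inhibitor was supplied once during the treatment. All 4 libraries therefore come from cells that had been exposed to GSI, and cells that were never exposed were not analysed here. The labels give the DAPT dose as 10 mg/ml, while the study's methods give the same figure in μg/ml. Nothing in the labels says that the 2 libraries of a condition are separate cultures, so p-values measure the spread between these libraries, which may be technical. The comparison asks how expression differs after the inhibitor is removed. The washout cells were also washed and cultured for 24 h more, and no library comes from cells kept in GSI for that time. Loss of the inhibitor, washing and longer culture therefore cannot be told apart.

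The reads counted on genes ranged from 13716199 to 36364200 per library, with the deeper library being replicate 1 in both conditions. edgeR's quasi-likelihood test covered 12266 genes, and genes were called when the adjusted p-value was under 0.05 and the log2 fold change exceeded 1 in size. By this rule 950 genes were higher and 1437 lower upon washout, and 586 and 1963 when libraries were scaled by the total count alone in place of TMM factors. All 18 genes that define the T lineage were tested, and their summed level lay between 8437 and 9169 CPM in every library. The sum hides moves in both directions. Of the 18, 2 were called higher and 3 lower (11.1% and 16.7%), beside 7.74% and 11.7% of all genes tested. Levels are given as CPM, the counts scaled to 1000000 per library with the TMM factors, and a difference as a log2 fold change, positive where washout is higher, beside its standard error (SE). 3 counts in a library correspond to between 0.0881 and 0.223 CPM, and limits of this kind cover counting error only. In bulk libraries, fewer cells of a type and less RNA per cell cannot be told apart.

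24 of the 40 TNF superfamily genes passed the filter on low counts and were tested. 2 of them, Tnfrsf8 and Ngfr, rose upon washout past both thresholds. 8 fell: the ligands Ltb and Tnf and the receptors Fas, Tnfrsf11a, Tnfrsf13b, Tnfrsf13c, Tnfrsf14 and Tnfrsf26. The other 14 did not pass. The counts correspond to 8.33% higher and 33.3% lower, where the shares among all genes tested were 7.74% higher and 11.7% lower. The median log2 fold change of the tested members was -0.94, beside -0.01 over all genes tested. 3 members, Tnfrsf11a, Tnfrsf13c and Tnfsf13b, entered the test only through their GSI libraries, where they were above the minimum of 0.453 CPM, so that the counts and the median describe the members that could be tested and not the family as a whole. Under the adjusted p-value alone, 3 members were higher and 10 lower, among 27.0% and 25.4% of all genes. The CPM of the conditions did not overlap for 3 members that were higher and 20 that were lower upon washout, beside 38.2% and 39.1% of all genes. The plot of CPM by library shows these levels.

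**Figure D1:**
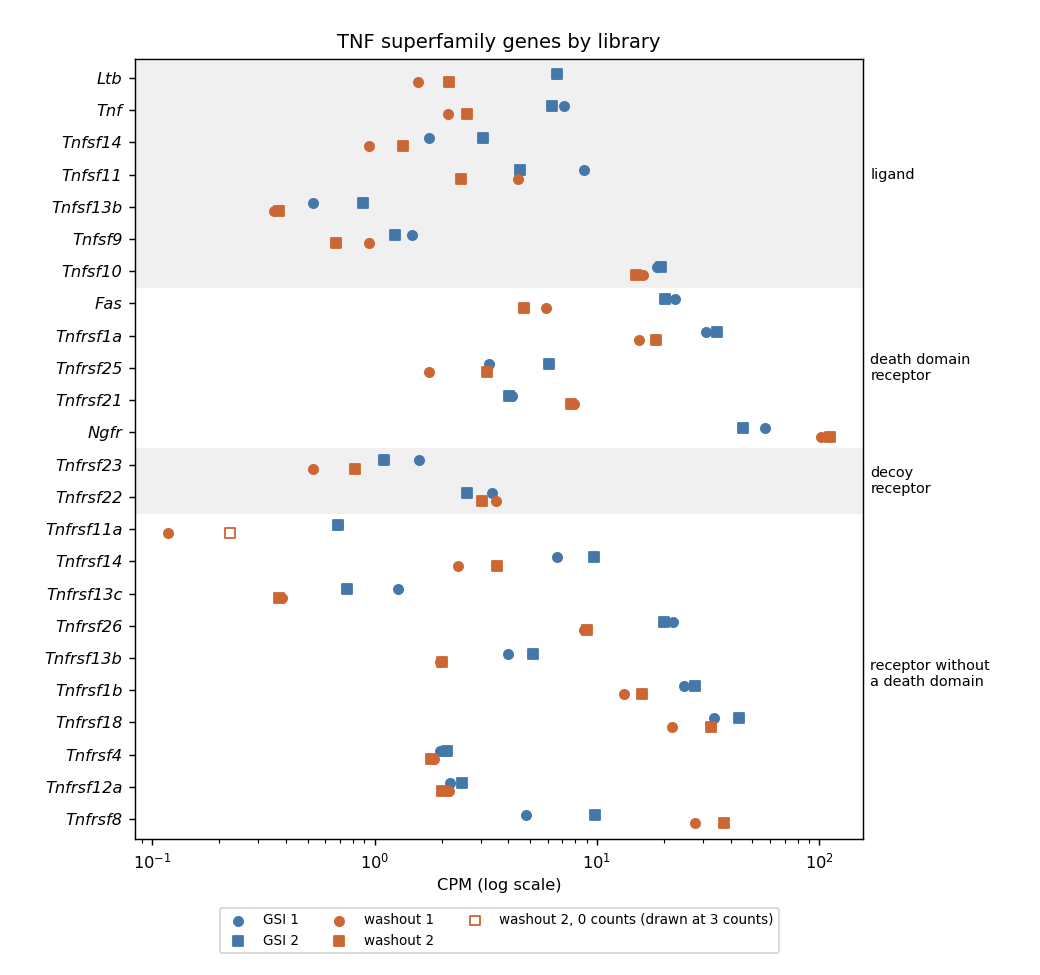
CPM (log scale) of the 24 TNF superfamily genes that were tested, grouped by role, in GSI (blue) and washout (orange), with circles for replicate 1 and squares for replicate 2. The open square marks 0 counts of Tnfrsf11a in washout replicate 2, drawn at 3 counts, and the 2 GSI points of Tnfrsf11a and of Ltb coincide. Ngfr, Tnfrsf8 and Tnfrsf21 have both washout points to the right of both GSI points. For 20 of the genes both washout points lie to the left of both GSI points.

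The promoters of some of the genes past both thresholds are shown because Notch acts through the DNA-binding factor RBPJ and several TNF receptors signal through NF-κB. The sequences are the 250 bases before the transcription start in RefSeq (GRCm38.p6), written from 5′ to 3′ along the gene. Capitals mark matches to the RBPJ motif TGGGAA on either strand (its reverse complement is TTCCCA) or to the NF-κB consensus on either strand. The genes that rose come first, Ngfr (chr11:95587699-95587948, minus strand) and Tnfrsf8 (chr4:145315165-145315414, minus strand), followed by Fas (chr19:34290409-34290658, plus strand), Ltb (chr17:35194257-35194506, plus strand) and Tnf (chr17:35202008-35202257, minus strand), which fell.
Ngfr: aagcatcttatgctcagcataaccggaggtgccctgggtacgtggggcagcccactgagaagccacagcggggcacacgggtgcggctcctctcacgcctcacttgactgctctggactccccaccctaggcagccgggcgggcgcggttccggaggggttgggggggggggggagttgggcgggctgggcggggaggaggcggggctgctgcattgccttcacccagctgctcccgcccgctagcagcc
Tnfrsf8: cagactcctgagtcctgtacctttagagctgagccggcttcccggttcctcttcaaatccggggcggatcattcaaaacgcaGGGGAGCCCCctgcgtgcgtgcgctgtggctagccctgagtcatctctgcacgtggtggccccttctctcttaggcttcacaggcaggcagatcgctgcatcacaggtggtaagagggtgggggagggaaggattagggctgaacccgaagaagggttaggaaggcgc
Fas: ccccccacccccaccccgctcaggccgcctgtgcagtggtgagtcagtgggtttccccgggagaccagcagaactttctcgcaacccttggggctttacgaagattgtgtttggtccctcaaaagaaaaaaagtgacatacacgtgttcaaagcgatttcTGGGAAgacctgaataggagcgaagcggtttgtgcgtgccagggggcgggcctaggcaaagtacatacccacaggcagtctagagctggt
Ltb: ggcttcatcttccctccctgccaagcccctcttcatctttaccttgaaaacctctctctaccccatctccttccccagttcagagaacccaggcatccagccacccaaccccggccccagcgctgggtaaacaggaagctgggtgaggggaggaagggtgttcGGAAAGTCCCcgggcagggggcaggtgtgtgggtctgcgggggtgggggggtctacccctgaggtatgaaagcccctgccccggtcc
Tnf: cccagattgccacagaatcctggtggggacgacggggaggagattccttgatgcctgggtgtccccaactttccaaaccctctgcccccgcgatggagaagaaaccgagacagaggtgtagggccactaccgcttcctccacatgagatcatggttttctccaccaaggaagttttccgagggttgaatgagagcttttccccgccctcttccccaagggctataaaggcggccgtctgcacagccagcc
The match in the Fas promoter is to the RBPJ motif and starts 90 bases before the transcription start. Those in Tnfrsf8 and Ltb are to the NF-κB consensus and start 168 and 87 bases before it. The windows of Ngfr and Tnf hold neither motif. Of 35 promoters listed for 31 of the members, 17.1% hold the RBPJ motif and 8.57% the NF-κB consensus, compared with 21.6% and 3.90% of all 32851 promoters in the table. Of the 9 listed for members past both thresholds, 2 (22.2%) hold the RBPJ motif and 2 (22.2%) the NF-κB consensus. Besides Fas, the RBPJ motif is in the promoter of Tnfrsf14, which fell, and starts 208 bases before the transcription start. Lta, which was not tested, has a match starting 16 bases before it. These are letter matches in a short window and are not measurements of binding. The paper found the RBPJ sites that lose binding under GSI mostly far from transcription starts, outside such a window. It gives their motif as TGRGAA, which is wider than the one searched here.

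Among the ligands, Ltb and Tnf fell upon washout. Ltb codes for lymphotoxin β, the membrane anchor of the lymphotoxin heterotrimer, which acts in lymphoid organ formation. Ltb was at 6.63 and 6.65 CPM in the GSI libraries and at 1.56 and 2.16 CPM in the washout libraries. The GSI libraries were nearly equal and lay well above both washout libraries. This is a log2 fold change of -1.88 (SE 0.265, edgeR adjusted p = 0.00201), or 3.67-fold lower. Tnf, the founding cytokine of the family, was at 7.09 and 6.31 CPM in GSI and at 2.14 and 2.60 CPM upon washout. Again both GSI libraries were above both washout libraries. The log2 fold change of Tnf was -1.52 (SE 0.241, adjusted p = 0.00311), or 2.87-fold lower. Both calls held without any single library, with log2 fold changes between -2.07 and -1.61 for Ltb and between -1.63 and -1.36 for Tnf.

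Lta, which codes for lymphotoxin α, the soluble partner of lymphotoxin β, was too low to pass the filter. It had 21 and 6 counts in GSI, compared with 3 and 1 counts upon washout. The rate per library size was 6.88 times higher in GSI (exact 95% interval 2.40 to 27.1, from 27 against 4 summed counts), an interval that covers counting error only and not the spread between libraries. In a fit without the filter its log2 fold change was -2.62 (SE 0.912, adjusted p = 0.0114). The 3 genes form the TNF locus on mouse chromosome 17, given here on mm9: Ltb at chr17:35331384-35333265 on the plus strand, Tnf at chr17:35336326-35338952 and Lta at chr17:35340110-35342296, both on the minus strand. Ltb and Tnf are 3.06 kb apart, and Tnf and Lta 1.16 kb. All 3 had lower CPM in both washout libraries than in either GSI library, as did 39.1% of all genes tested.

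The other 5 ligands that were tested did not pass the adjusted p-value threshold, and all of them had a log2 fold change below 0. Tnfsf10, which codes for the death ligand TRAIL, was at 18.6 and 19.4 CPM in GSI and at 16.2 and 15.0 CPM upon washout. Its log2 fold change was -0.28 (SE 0.130, adjusted p = 0.119). Tnfsf11, which codes for RANKL, the ligand that drives osteoclast and medullary thymic epithelial development, differed between replicates of one condition about as much as between conditions. It was at 8.75 and 4.52 CPM in GSI and at 4.41 and 2.46 CPM upon washout, giving a log2 fold change of -0.93 (SE 0.405, adjusted p = 0.0989). The value depended on single libraries. It was -1.29 without GSI replicate 2 and -1.46 without washout replicate 1. Without GSI replicate 1 it was -0.36, and without washout replicate 2 it was -0.61. With all 4 libraries it would pass both thresholds with the correction for the GC content and length of exons (-1.14, and -1.17 with a replicate block). DESeq2 gave -0.92 and did not call it. The log2 fold changes were -1.09 for Tnfsf14, the ligand LIGHT (SE 0.413, adjusted p = 0.0663), -0.90 for Tnfsf13b, the B-cell survival factor BAFF (SE 0.478, adjusted p = 0.162), and -0.71 for Tnfsf9, the ligand of 4-1BB (SE 0.358, adjusted p = 0.143). Without 1 library the value of Tnfsf14 ranged from -1.49, past both thresholds without GSI replicate 1, to -0.65 without GSI replicate 2, and it did not pass in the other 3 fits. Tnfsf13, which codes for APRIL, was too low to be tested, with 10 and 9 counts in GSI, compared with 15 and 1 upon washout, and its exons overlap BC096441. The remaining ligands were at or near 0. Fasl, Tnfsf4, Tnfsf8, Tnfsf15 and Tnfsf18 had no counts in any library, Cd40lg had 2 counts in 1 library, and Tnfsf12 had at most 4.

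**Figure D2:**
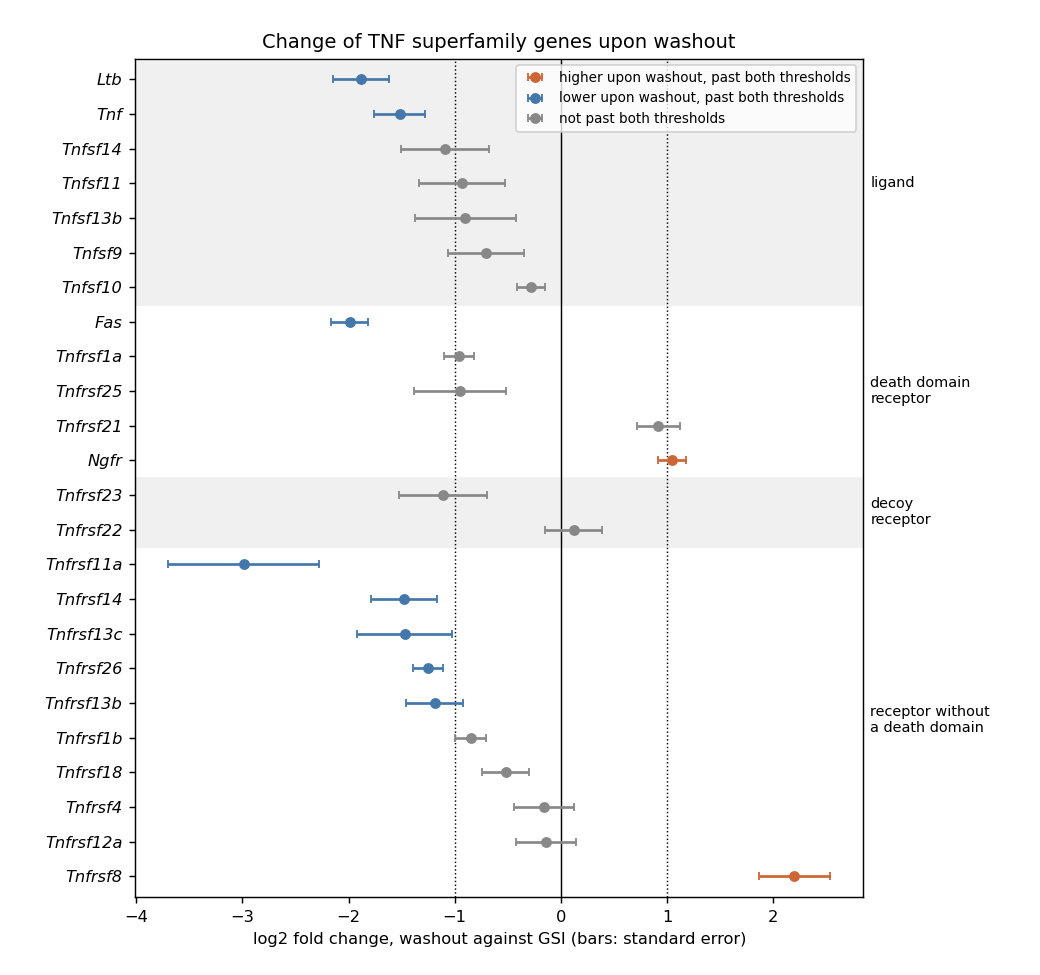
Log2 fold change (washout over GSI) for the 24 genes tested, grouped by role, with bars for the standard error and dotted lines at -1 and 1. Tnfrsf8 (2.2) and Ngfr (1.05) stand to the right of the upper line in orange, the 8 genes that fell past both thresholds are blue, and grey genes passed at most 1 of the thresholds.

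The death domain receptors moved in both directions. Fas, the receptor of Fas ligand and a classic trigger of lymphocyte apoptosis, showed the lowest adjusted p-value of the members tested. Fas was at 22.5 and 20.2 CPM in GSI and at 5.91 and 4.69 CPM upon washout. Both washout libraries were far below both GSI libraries, which amounts to a log2 fold change of -1.99 (SE 0.177, adjusted p = 0.000525), or 3.97-fold lower. The value stayed between -2.18 and -1.84 when each library was left out. Fas lies at chr19:34365149-34402260 on the plus strand (mm9).

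Ngfr, which codes for the low-affinity neurotrophin receptor p75, went the other way. It was at 57.3 and 45.5 CPM in GSI and at 102 and 112 CPM upon washout, so that both washout libraries lay well above both GSI libraries. Its log2 fold change was 1.05 (SE 0.133, adjusted p = 0.00137), or 2.07-fold. Since this is just above the fold threshold, the call was lost at 0.85 with the total count alone and at 0.91 without GSI replicate 2, with an adjusted p-value that stayed under 0.05 in both. Ngfr is at chr11:95430132-95449049 on the minus strand (mm9). Tnfrsf21, the death receptor DR6, also had higher levels upon washout, with 4.16 and 4.04 CPM in GSI and at 7.87 and 7.66 CPM after washout. Replicates were close to each other in both conditions. The log2 fold change was 0.92 (SE 0.199, adjusted p = 0.00988), under the fold threshold, and 1.06 with a correction for the GC content and length of exons, which would pass it.

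Tnfrsf1a codes for TNFR1, the TNF receptor that most cells carry. It was at 31.0 and 34.7 CPM in GSI and at 15.4 and 18.5 CPM upon washout. All GSI values were higher, with a log2 fold change of -0.96 (SE 0.142, adjusted p = 0.00235), just short of the fold threshold. This value was -1.05 without GSI replicate 1 and -1.07 without washout replicate 2. Without GSI replicate 2 it was -0.87, and without washout replicate 1 it was -0.82. Tnfrsf1a would pass with the total count alone (-1.16) and, barely, with a filter of at least 10 counts in every library (-1.0). The correction for the GC content and length of exons gave -0.75, under the fold threshold. Tnfrsf25, the T-cell death receptor DR3, was at 3.28 and 6.10 CPM in GSI and at 1.76 and 3.20 CPM upon washout. Here the GSI libraries differed nearly as much from each other as the conditions did, and the log2 fold change of -0.95 did not pass (SE 0.432, adjusted p = 0.112). It ranged from -1.36 without washout replicate 2, the 1 fit that passed, to -0.45 without GSI replicate 2. Tnfrsf10b, the mouse TRAIL receptor, had between 0 and 6 counts per library and was not tested.

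Tnfrsf22 and Tnfrsf23 code for decoy receptors that bind TRAIL without passing on a death signal. Their reference transcripts share 91.0% of bases over 2174 aligned positions, so that reads may have been split between them and both values are uncertain. Tnfrsf22 was at 3.38 and 2.60 CPM in GSI and at 3.50 and 3.05 CPM upon washout, which overlap. Its log2 fold change was 0.12 (SE 0.270, adjusted p = 0.724), with a sign that turned to -0.08 when libraries were scaled by the total count alone and to -0.02 without GSI replicate 2. Tnfrsf23 was at 1.59 and 1.10 CPM in GSI and at 0.529 and 0.818 CPM upon washout. These do not overlap, but the log2 fold change of -1.11 did not pass (SE 0.413, adjusted p = 0.063). It would pass with the total count alone (-1.31) and with the correction for the GC content and length of exons (-1.18). The same holds for a replicate block (-1.18) and for a filter of at least 10 counts in every library (-1.16). DESeq2 gave -1.03 and did not call it (adjusted p = 0.289). Tnfrsf11b, which codes for the soluble RANKL decoy osteoprotegerin, had no counts.

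Of the 10 receptors without a death domain that were tested, Tnfrsf8 rose and 5 fell past both thresholds. These are 10.0% and 50.0%, beside 7.74% and 11.7% of all genes tested. Tnfrsf8 codes for CD30, a costimulatory receptor of activated lymphocytes that is also a marker of Hodgkin lymphoma cells. It was at 4.81 and 9.80 CPM in GSI and at 27.5 and 37.5 CPM upon washout. The GSI libraries were far from each other, and both remained well under the washout libraries. The log2 fold change was 2.2 (SE 0.337, adjusted p = 0.00271), or 4.6-fold, the largest rise among the members tested, and it ranged from 1.72 to 2.76 without 1 library. On chromosome 4 of mm9, Tnfrsf8 (chr4:144857040-144905067) lies 20.3 kb from Tnfrsf1b (chr4:144803366-144836773), both on the minus strand. Their log2 fold changes were of opposite sign. Tnfrsf1b codes for TNFR2, the TNF receptor enriched on lymphocytes, and was at 24.6 and 27.6 CPM in GSI and at 13.2 and 15.9 CPM upon washout. Its log2 fold change was -0.85 (SE 0.149, adjusted p = 0.00454), under the fold threshold, and -1.05 with the total count alone.

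Tnfrsf26 and Tnfrsf14 were the better covered of the receptors that fell. Tnfrsf26, a mouse receptor of little-known function, was at 22.1 and 20 CPM in GSI and at 8.73 and 9.0 CPM upon washout. Replicates lay close together and the conditions apart, for a log2 fold change of -1.25 (SE 0.143, adjusted p = 0.000982), or 2.39-fold lower. Tnfrsf26 (chr7:150793568-150813858, mm9) is 37.9 kb from Tnfrsf23. Tnfrsf14 codes for HVEM, the receptor of LIGHT and a partner of BTLA. It was at 6.63 and 9.66 CPM in GSI and at 2.38 and 3.57 CPM upon washout. The conditions did not overlap in spite of the spread within each, and the log2 fold change was -1.48 (SE 0.312, adjusted p = 0.00908), or 2.79-fold lower. The call held without each library in turn, between -1.74 and -1.17. Tnfrsf14 is at chr4:154296319-154302672 on the minus strand (mm9).

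The other 3 receptors that fell were low. Tnfrsf13b, which codes for TACI, a receptor of BAFF and APRIL known from B cells, was at 4.0 and 5.14 CPM in GSI and at 1.97 and 2.01 CPM upon washout. Its washout libraries were nearly equal and under both GSI libraries. The log2 fold change was -1.19 (SE 0.271, adjusted p = 0.0121), and without GSI replicate 2 it was -1.0 and did not pass (adjusted p = 0.0681). Tnfrsf13c, the BAFF receptor, had 41 and 11 counts in GSI, compared with 13 and 5 upon washout, or 1.28 and 0.754 CPM against 0.382 and 0.372 CPM. At these counts the call rested on most of the libraries. The log2 fold change was -1.47 (SE 0.448, adjusted p = 0.0332), and the call was lost with DESeq2 (-1.43, adjusted p = 0.208), without GSI replicate 1 (-0.99, adjusted p = 0.303), without washout replicate 1 (-1.49, adjusted p = 0.169) and without washout replicate 2 (-1.44, adjusted p = 0.0948). Tnfrsf11a codes for RANK, the receptor of RANKL. It had 22 and 10 counts in GSI, compared with 4 and 0 upon washout. The rate was 8.15 times higher in GSI (exact 95% interval 2.89 to 31.7, counting error only). The fitted log2 fold change of -2.99 (SE 0.709, adjusted p = 0.014) depends on how low counts are treated. DESeq2 gave -3.23 with an adjusted p of 0.0566, and the 3 fits without 1 library that kept the gene ranged from -6.79 to -2.48.

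3 receptors without a death domain had small differences that did not pass. Tnfrsf18, which codes for the costimulatory receptor GITR, was at 33.8 and 43.5 CPM in GSI and at 21.7 and 32.7 CPM upon washout, giving a log2 fold change of -0.52 (SE 0.222, adjusted p = 0.0961). Its exons overlap Gm16008 on the other strand. Tnfrsf4, which codes for OX40, lies 9.55 kb from it. Tnfrsf4 was at 1.97 and 2.12 CPM in GSI and at 1.85 and 1.79 CPM upon washout, with a log2 fold change of -0.16 (SE 0.283, adjusted p = 0.661). Tnfrsf12a, the TWEAK receptor Fn14, overlaps Hcfc1r1 on the other strand and had a log2 fold change of -0.14 (SE 0.278, adjusted p = 0.702), which turned to 0.01 with the correction for the GC content and length of exons. Cd40, Ltbr, Tnfrsf9, Tnfrsf17 and Tnfrsf19 were not tested. Cd40 and Ltbr, the latter being the receptor of the lymphotoxin αβ heterotrimer and of LIGHT, had 0 counts in every library, which allows a level of up to 0.0881 CPM in the deepest one. Tnfrsf9, which codes for 4-1BB, had at most 6 counts, and Tnfrsf17 and Tnfrsf19 at most 1.

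The relative levels of the members were compared per length, as CPM per kb of exon, for the 39 that have a single match in the annotation. In GSI, Tnfrsf18 was the most abundant member, at a mean of 25.3 CPM per kb, and Ngfr followed with 14.9, Tnfrsf1a with 12.6 and Fas with 11.9. Upon washout the order changed. Ngfr was now highest at 31.1 CPM per kb, followed by Tnfrsf18 at 17.9, whereas Tnfrsf8 moved from 2.11 to 9.40 and Fas from 11.9 to 2.94. Of the summed CPM per kb of all members, Ngfr made up 14.8% and 11% in the GSI libraries and 34.3% and 31.9% in the washout libraries. Fas made up 11.1% and 9.36%, then 3.79% and 2.56%. The ligands together were at 17.4% and 15.2% in GSI and at 10.9% and 8.62% upon washout. These shares are descriptions of 2 libraries per condition and add up within a library, so that a rise of one gene lowers the share of the others. The sum itself was 112 and 120 CPM per kb in GSI and 86.6 and 102 upon washout.

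**Figure D3:**
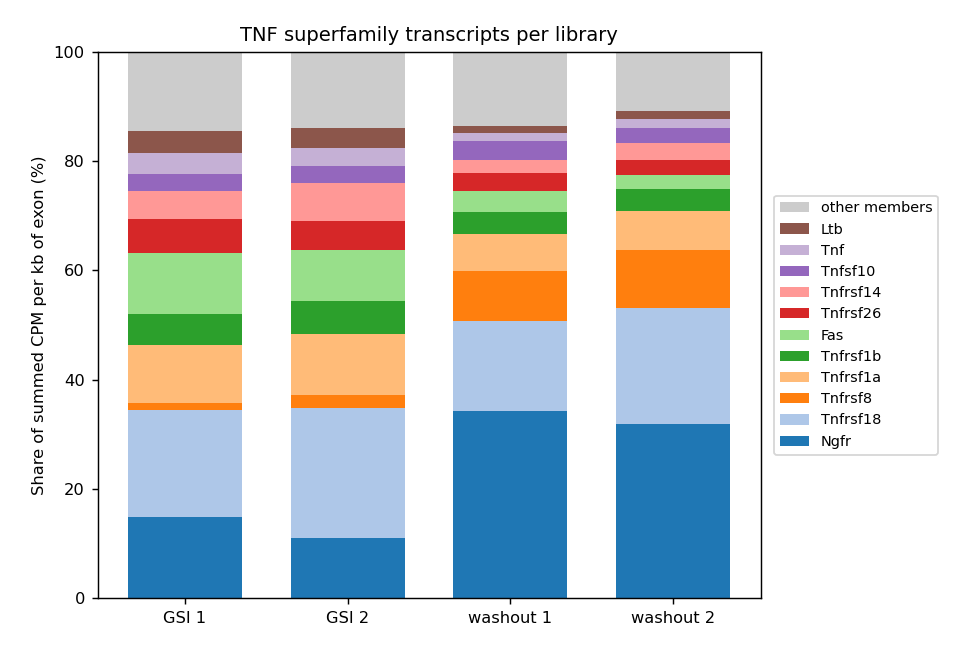
Share (%) of the summed CPM per kb of exon of the TNF superfamily genes in each of the 4 libraries, stacked by gene, with all genes not named in the legend in grey. The dark blue segment of Ngfr is 14.8% and 11% in GSI and 34.3% and 31.9% upon washout, and the light green segment of Fas shrinks from 11.1% and 9.36% to 3.79% and 2.56%.

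Set against known ligand and receptor partners, several receptors were measured whose ligand gene had no counts. Of 26 partner pairs within the family, both genes were tested in 8, the receptor only in 9, the ligand only in 7 and neither in 2. Fas, Tnfrsf8, Tnfrsf4, Tnfrsf18 and Tnfrsf25 were all tested, while their ligand genes Fasl, Tnfsf8, Tnfsf4, Tnfsf18 and Tnfsf15 had no counts. Conversely Ltb was tested and Ltbr had no counts. Tnf and its receptors Tnfrsf1a and Tnfrsf1b all had negative log2 fold changes (-1.52, -0.96 and -0.85), each with an adjusted p under 0.05. Of all genes tested, 25.4% were lower by that rule, and both receptors were under the fold threshold. For Tnfsf11 and its receptor Tnfrsf11a the log2 fold changes were -0.93 and -2.99. Tnfrsf11a entered the test through its GSI libraries only and was not called by DESeq2.

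The receptors of the same family that carry other symbols were checked as well. Cd27, the receptor of CD70 and a costimulator of T cells, fell, and per length it exceeded every member, at a mean of 83 CPM per kb in GSI and 37.6 upon washout. It was at 191 and 196 CPM in GSI and at 75.6 and 99.3 CPM upon washout, giving a log2 fold change of -1.15 (SE 0.143, adjusted p = 0.00131), which was -0.96 without washout replicate 1 and then under the fold threshold. Relt, a further receptor of the family, was at 20.2 to 24.1 CPM in every library, with a log2 fold change of 0.07 (SE 0.137, adjusted p = 0.701). Cd70, Eda, Edar and Eda2r had at most 1 count.

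Downstream of the receptors, 53 genes of the signaling and response lists were tested, of which 1 was higher and 7 lower, or 1.89% and 13.2%, beside 7.74% and 11.7% of all genes tested. None of 16 adaptors and ubiquitin ligases passed both thresholds, with a median log2 fold change of -0.23. Under the adjusted p-value alone 7 did, where 27.0% of all genes tested were higher and 25.4% lower by that rule. The lowest adjusted p was that of Traf3, an adaptor that restrains the noncanonical NF-κB pathway, at 33.0 and 34.2 CPM in GSI and at 48.1 and 44.7 CPM upon washout (log2 fold change 0.47, SE 0.102, adjusted p = 0.0102). None of 13 kinases passed both either, with a median of -0.05. Map3k5, the stress kinase ASK1, had the lowest adjusted p, with 59.7 and 54.0 CPM in GSI and at 32.0 CPM in both washout libraries (log2 fold change -0.83, SE 0.103, adjusted p = 0.00131). It would pass with the total count alone, at -1.03.

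Of 11 genes of the cell death branch only Cflar passed both thresholds. Cflar codes for c-FLIP, the inhibitor of caspase-8 activation at death receptors. It was at 65.5 and 81.1 CPM in GSI and at 29.5 and 34.2 CPM upon washout, a fall of -1.21 on the log2 scale (SE 0.142, adjusted p = 0.00109). The median of this list was 0.25. Of the 4 tested genes for the shedding of membrane proteins, Rhbdf2 fell. It codes for iRhom2, which escorts the TNF-cleaving protease ADAM17 to the cell surface, and went from 23.8 and 25.2 CPM to 9.14 and 9.90 CPM (log2 fold change -1.37, SE 0.135, adjusted p = 0.00066). With the correction for the GC content and length of exons it was -0.95 and under the fold threshold.

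The list of NF-κB response genes had 1 higher and 5 lower among 10 tested, where 7.74% and 11.7% of all genes tested were called, and a median of -0.93. The higher call, Nfkb2, and 1 of the lower calls, Relb, were lost under alternatives given with them. Nfkbie and Nfkbia, which code for the inhibitors IκBε and IκBα, fell. Nfkbie was at 133 and 136 CPM in GSI and at 30.3 and 36.5 CPM upon washout (log2 fold change -2.01, SE 0.118, adjusted p = 0.000303). Nfkbia was at 113 and 127 CPM in GSI and at 36.1 and 45.8 CPM upon washout (-1.56, SE 0.14, adjusted p = 0.000533). Tnfaip3, which codes for the feedback inhibitor A20, and the adhesion molecule gene Icam1 fell as well. Tnfaip3 went from 103 and 106 CPM to 37.5 and 46.5 CPM (-1.32, SE 0.125, adjusted p = 0.000593). Icam1 went from 19.1 and 18.6 CPM to 5.46 and 6.77 CPM (-1.64, SE 0.172, adjusted p = 0.00078). For these 4 genes the conditions were far apart compared with the replicates. Relb, a subunit of the noncanonical pathway, was lower at -1.26 (SE 0.294, adjusted p = 0.0132), a call that was lost without GSI replicate 1 (-1.14, adjusted p = 0.0685), without washout replicate 1 (-0.93, adjusted p = 0.0612) and at -0.97 with the correction for the GC content and length of exons. Nfkb2, which codes for the p100 precursor of that pathway, rose from 28.8 and 27.8 CPM to 54.3 and 71.0 CPM (1.14, SE 0.148, adjusted p = 0.00152). It was under the fold threshold at 0.94 with the total count alone and at 0.96 without washout replicate 2. Its exons overlap Psd on the other strand.

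**Figure D4:**
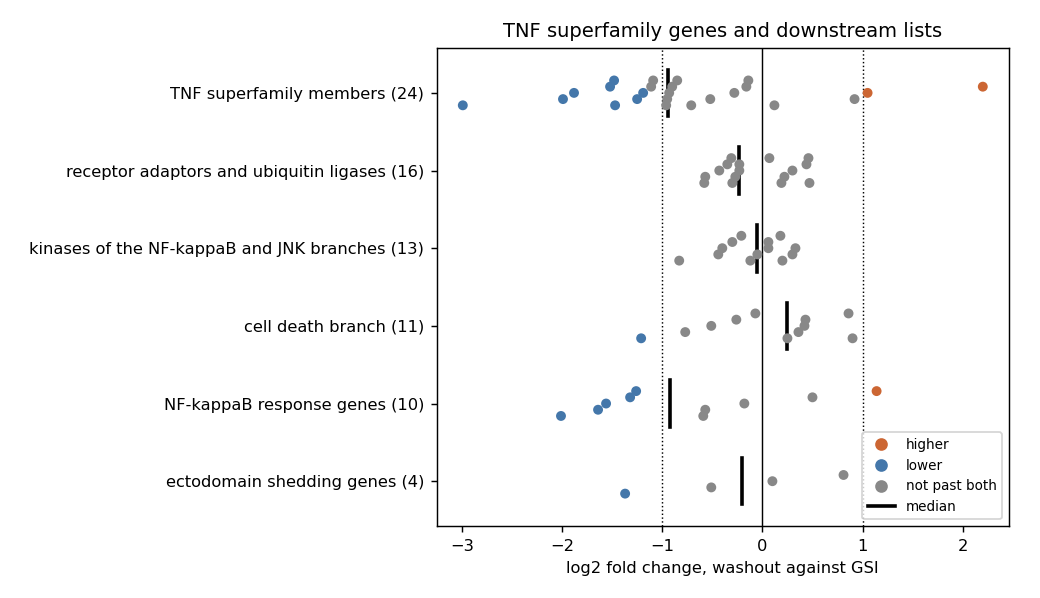
Log2 fold change (washout over GSI) for the 24 TNF superfamily genes tested and for the tested genes of 5 lists of downstream genes (number in parentheses), 1 point per gene, with the median as a bar and dotted lines at -1 and 1. The medians were -0.94 for the superfamily and -0.93 for the NF-κB response genes, and between -0.23 and 0.25 for the other lists.

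Lists of genes used as markers of other cell types were also read, and each sum came mostly from a single gene. The summed level of 7 NK-cell markers was 2606 and 1804 CPM in GSI, compared with 388 and 308 CPM upon washout, nearly all of it from Gzma, with Klrk1 and Klra8 at 0. The 2 that were tested, Gzma and Prf1, fell (log2 fold changes -2.66 and -2.93). Of 7 mast-cell markers, Mcpt4, Mcpt8, Tpsb2, Fcer1a and Ms4a2 were at 0 in every library, and the sum, 176 and 77.6 CPM in GSI compared with 9.34 and 2.23 CPM upon washout, was nearly all Cpa3, the only one tested (-4.30). The 9 myeloid markers in the table summed to 49.3 and 38.5 CPM in GSI and to 5.52 and 5.06 CPM upon washout, almost all from Itgam, the only one tested (-3.08), with Lyz2, Elane and Cebpa at 0. The 8 B-cell markers, of interest for Tnfrsf13b and Tnfrsf13c, summed to 9.13 and 6.24 CPM in GSI and to 3.38 and 2.08 CPM upon washout, mostly Blnk, the only one tested (-1.5, a call lost without GSI replicate 1), with Ms4a1, Pax5 and Ebf1 at 0. A list of 7 stromal, endothelial or epithelial genes summed to 269 and 220 CPM in GSI and to 95.3 and 102 CPM upon washout. Most of it was Pecam1, which is not a stromal marker, at 221 and 174 CPM in GSI and at 67.1 and 64.4 CPM upon washout. Col3a1 was at 0, and of 5 tested Col1a1 and Pecam1 fell (-3.59 and -1.59). All of these sums were lower upon washout, and their part in the changes of the TNF superfamily genes was not tested. Of the T-lineage genes themselves, Ptcra and Notch1 were higher past both thresholds (2.37 and 1.14), Notch1 losing the call with the total count alone (0.94) and without GSI replicate 1 (0.98), and Gata3, Cd4 and Cd8b1 lower (-1.67, -1.16 and -1.29).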

How the data were processed

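RNA-Seq of Beko cells was read in 4 libraries, 2 per condition, made with a stranded total-RNA kit after ribosomal depletion. Trimmed reads were aligned by the authors to mm9 with HISAT2 (2.2.1 per the submitters' processing notes, which also list DESeq2 1.24.0) and counted per gene with summarizeOverlaps. The deposited table holds raw counts, with no normalization. The strand setting and overlap mode of the counting are not given in the sources used here, so genes that overlap a neighbor are uncertain. Every sample column was used.

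Counts were fitted over the whole table with edgeR 4.0.16 in R 4.3.3 (filterByExpr, TMM, estimateDisp, quasi-likelihood test, no covariates, Benjamini-Hochberg adjustment over the 12266 genes tested). The biological coefficient of variation was 0.121. The SE was obtained by dividing the log2 fold change by the root of the F statistic. Log2 CPM correlated at 0.990 and 0.988 within conditions and at 0.935 to 0.947 between them. The script was tested on simulated data. Alternatives were DESeq2 1.42.0, RLE factors in edgeR, which are DESeq2's size factors, scaling by the total count alone, keeping every gene with 1 count or more, keeping only genes with 10 or more counts per library, a replicate block, a correction for the GC content and length of exons (natural spline with 4 degrees of freedom, for 89.4% of the genes tested) with and without the block, the adjusted p-value alone, and leaving out each library, which leaves 1 library in its condition that is assumed to vary like the others.

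The members and gene lists were chosen with earlier results of these data known. Every tested member is named. Members with an adjusted p under 0.05 get values per library. From each list the genes past both thresholds are named or, where none passed, the gene with the lowest adjusted p. Positions, exon lengths and overlaps come from GENCODE vM1 on mm9, where 39 members have a single match. Promoters come from RefSeq on GRCm38.p6 and were not converted.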

Additional observations from a re-analysis of the deposited data

How the results depend on the processing

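With the total count alone in place of TMM factors, 1 member was higher in place of 2 (Ngfr fell under the fold threshold) and 12 were lower in place of 8. Of all genes tested, 4.78% were then higher in place of 7.74%, and 16% lower in place of 11.7%. The median log2 fold change of the tested members was -1.14 in place of -0.94. Leaving out each library gave a median between -1.02 and -0.78. The median of -0.78 was that without GSI replicate 2. The number of members lower was 6 with DESeq2, where 8.86% of all genes were lower. It was 10 with no filter beyond 1 count (8.93% of all genes) and with the correction for GC content and exon length (10%). With the adjusted p-value alone it was also 10 (25.4% of all genes). With the total count alone the related lists had 0 higher and 8 lower calls. With the correction for GC content and exon length they had 1 and 5, beside 8.7% and 10% of all genes. The main fit had 1 and 7.

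The conditions share replicate numbers, and the deviations of same-numbered libraries correlated at 0.497, but with 2 pairs and no label that ties them, the libraries share only a number. With a replicate block, 2 members were higher and 10 lower, Tnfrsf23 (-1.18, adjusted p = 0.010) and Tnfsf14 (-1.02, adjusted p = 0.00505) being added, and the median was -0.93. Over all genes the block gave 981 higher and 1576 lower calls by edgeR.

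Of 281 log2 fold changes of single members under an alternative, 248 kept direction and side of the thresholds, 8 lost the call, 21 gained one and 4 changed sign. The sign changes were those of Tnfrsf12a (0.01 with the correction for GC content and length, 0.04 with the correction and the block) and Tnfrsf22 (-0.08 with the total count alone, between -0.02, without GSI replicate 2, and 0.33 when each library was left out). The cause of these changes was not tested. Depth limits the low members: 16 of 40 could not be tested, 8 of them at 0 in every library.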
